A study of Mus musculus with 13 samples.

Results

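A set of 9 genes of galactose and glycogen metabolism was followed in subcutaneous fat of mice kept at a cool or at a thermoneutral temperature. They were *Galt*, *Galk1* and *Galm* of galactose breakdown, *Pgm1* and *Ugp2* of the sugar phosphate and UDP-sugar steps, *Gys1*, *Gys2* and *Gbe1* of glycogen synthesis, and *Pygl* of glycogen breakdown. These 9 genes were chosen by name from 34419 genes with a row of counts, after the difference of *Galt* between temperatures had been seen in the same libraries. The values of *Galt* in that comparison are therefore a description only, and support nothing about the pathway.

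Gluteal WAT, a posterior subcutaneous white adipose tissue depot, came from C57BL/6J males that lived at 22°C (7 mice) or at 29°C (6 mice) until 13 weeks of age. Posterior hair was removed after weaning in both groups, so that no furred group enters the comparison, and the study's methods describe single housing on minimal bedding without nesting material. Each mouse gave 1 RNA-seq library, and the labels give no litter, cage or sequencing date. The question addressed is which transcripts differ in this depot when the environment is cooler.

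Cells take galactose into general metabolism by the Leloir pathway, in which galactose is turned to its working anomer, phosphorylated, exchanged with UDP-glucose and so converted to glucose 1-phosphate. Glucose 1-phosphate and UDP-glucose are also the starting point of glycogen, which is primed on a protein core, lengthened by glycogen synthase, branched, and later shortened by glycogen phosphorylase. White adipocytes hold little glycogen, and skeletal muscle and liver, which hold much, use their own isoforms of the synthase and the phosphorylase.

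Total counts per library were between 22356637 and 25245785, and no gene of the 9 was at 0 in any library, the lowest raw count being 45 for *Gys2*. The totals of 22°C replicates 1 to 5 lay between 22356637 and 22857079, and all other libraries between 24821549 and 25245785, so that most of the cool group was also the group with the lower totals. All 12 mature adipocyte markers were expressed, with summed levels of 32713 to 49751 CPM (counts scaled to library totals by the TMM method) at 22°C and 36788 to 50032 CPM at 29°C. Skeletal muscle markers were present in every library, at 903 to 93761 CPM in sum at 22°C and 177 to 7499 CPM at 29°C, and all 20 had a higher mean at 22°C although none passed the test. Libraries 22°C replicate 1 and 22°C replicate 7 were the richest in muscle transcripts. Of 7 tested brown and beige fat markers, 6 were higher at 22°C, 3 of them past the threshold, with sums of 52.9 to 204 CPM against 15.5 to 41.9 CPM, and *Ucp1*, at most 0.369 CPM, was too low to test. A large part of these sums was *Cox8b*, at 21.2 to 111 CPM against 4.79 to 19.7 CPM, and whether it came from muscle was not tested. In bulk tissue, fewer cells of a type and less RNA per cell cannot be told apart.

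All 9 genes passed the filter on low counts, among 17779 genes tested with edgeR. At a Benjamini-Hochberg adjusted p (P-adj) below 0.1, 1 of the 9, *Galt*, was called, against 1.94% of all genes tested. The called gene was higher at 22°C, as were 0.731% of all genes, whereas 1.21% were called lower. Log2 ratios of the 9 genes, the fitted fold changes of 22°C over 29°C on the log2 scale, had a median of 0.37, with 6 genes higher and 3 lower, next to a median of 0.01 and 51.6% higher over all genes. *Galt* was also the only one of the 9 whose groups did not overlap, a pattern seen in 1.24% of all genes tested.

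**Figure D1:**
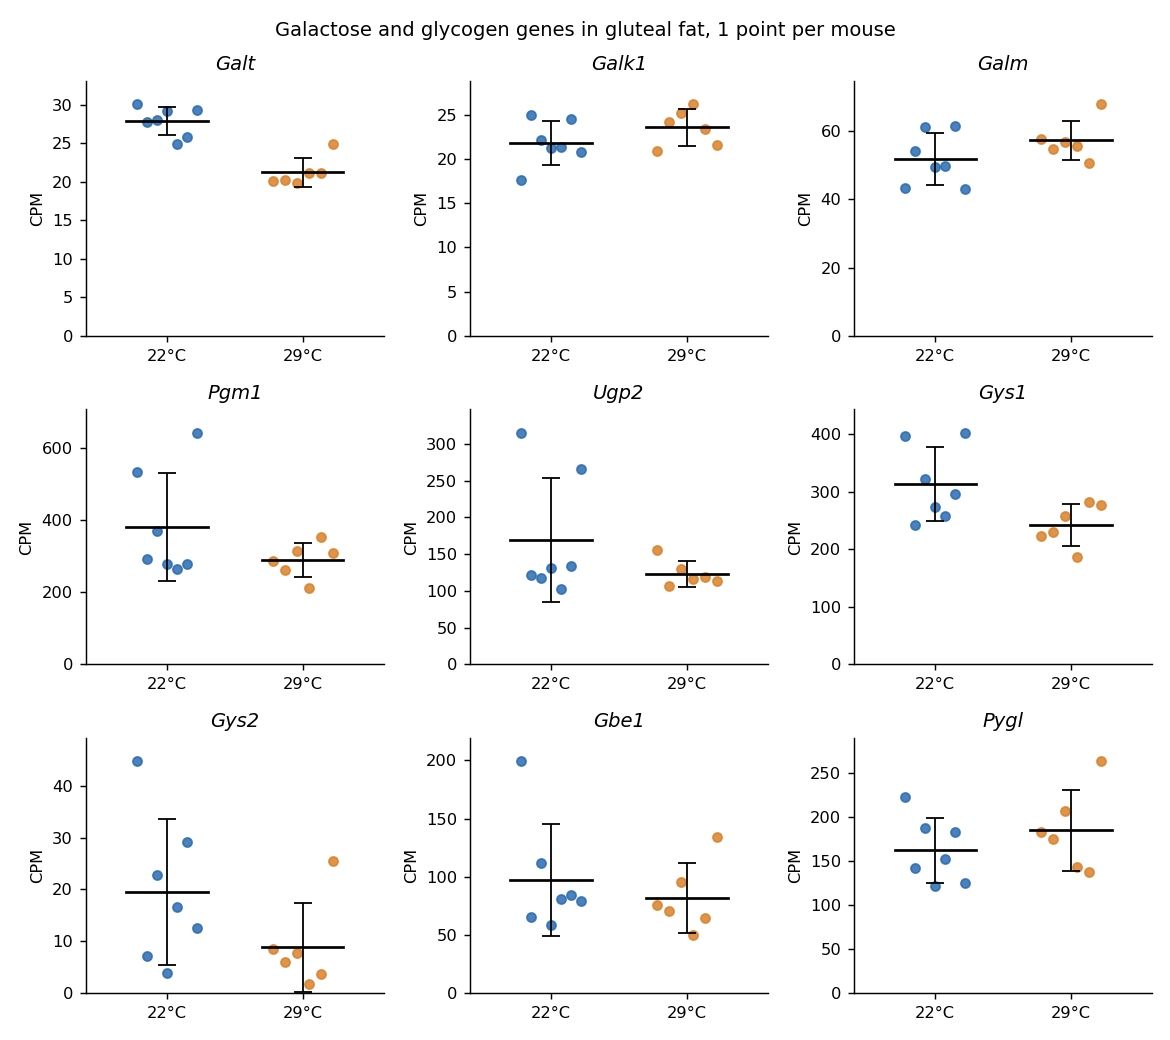
Level of each gene in CPM (vertical axis, from 0) in every mouse at 22°C (blue, n = 7) and 29°C (orange, n = 6), where bars give the mean ± SD. Only *Galt* separates the groups, the lowest cool mouse being at 24.9 CPM and the highest warm mouse at 24.8 CPM, and 2 cool mice stand far above the rest for *Pgm1* and *Ugp2*.

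*Galt* encodes galactose-1-phosphate uridylyltransferase, the enzyme that exchanges galactose 1-phosphate with UDP-glucose and whose loss causes classic galactosemia. Its level ranged from 24.9 to 30.0 CPM at 22°C, with a median of 28.0 CPM, and from 19.9 to 24.8 CPM at 29°C, with a median of 20.7 CPM. All 7 cool mice lay above all 6 warm mice, but the gap was narrow, since 29°C replicate 6 stood apart from the other warm mice, of which the next was at 21.2 CPM. In counts before scaling, 29°C replicate 6 had 590, more than 22°C replicates 1 and 5 with 570 and 588. The mean was 27.9 ± 1.87 CPM (SD, n = 7) in cool mice against 21.2 ± 1.86 CPM (SD, n = 6) in warm mice, for a log2 ratio of 0.39 (SE 0.07). The difference had nearly the same size, 0.37 (SE 0.11), when only the libraries with higher totals were compared, which leaves 2 cool mice, and 0.35 (SE 0.08) without 22°C replicates 1 and 7. With the muscle score of each library, the mean log2 CPM of the 20 muscle markers, as a covariate it was 0.39 (SE 0.08). The settings in which *Galt* no longer passed the threshold included the higher-total libraries alone, the muscle score as a covariate, lower or higher total as a covariate (0.38, SE 0.10) and the removal of 29°C replicate 3 (0.38, SE 0.07).

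The counts of *Galt* may hold reads of overlapping genes, as the strand setting of the counting is not known. In the GENCODE M21 annotation of GRCm38, which differs from the one the counts were made with, *Galt* overlaps the span of *Il11ra1* on the same strand, with 0 shared exon bases. *Il11ra1*, an interleukin 11 receptor subunit, had means of 67.8 and 78.9 CPM at 22°C and 29°C (log2 ratio -0.22, SE 0.11, P-adj 0.301 by edgeR).

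*Galk1*, galactokinase, acts one step before *Galt*. It ranged from 17.6 to 25.0 CPM at 22°C, with a median of 21.4 CPM, and from 20.8 to 26.2 CPM at 29°C, with a median of 23.8 CPM. The groups overlapped broadly, and the means of 21.8 ± 2.48 CPM and 23.6 ± 2.08 CPM did not differ beyond the spread between mice (log2 ratio -0.11, SE 0.09, P-adj 0.522 by edgeR). *Galm*, the mutarotase that converts the anomers of galactose at the entry of the pathway, ranged from 43.0 to 61.4 CPM at 22°C, with a median of 49.7 CPM, and from 50.7 to 67.7 CPM at 29°C, with a median of 56.0 CPM. Of the 7 cool mice, 4 lay below every warm mouse, yet the other cool mice lay among them, and the means of 51.7 ± 7.56 CPM and 57.1 ± 5.72 CPM gave a log2 ratio of -0.14 (SE 0.10, P-adj 0.454 by edgeR). The enzyme before and the enzyme at the entry of the pathway thus had lower means in the cool, opposite in sign to *Galt*, without passing the test.

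The bases before the transcription start are shown for *Galt* and *Galk1* because both hold the palindrome CACGTG, although their levels did not move alike. Sequences are from RefSeq, build GRCm38.p6, which has an entry for 7 of the 9 genes (*Galm* and *Gys2* are not among them), and 250 bases before each start were searched on both strands. The motifs were picked after the sequences had been read. CACGTG stood in 2 of the 7 genes and in 6.02% of all 32851 entries, CAGCTG in 3 of 7 and 13.0%, CCAAT in 4 of 7 and 33.8%, and GGGCGG in 6 of 7 and 32.7%. A gene counts with a match at any of its starts, and *Galt* and *Ugp2* have 2 entries each, so the 2 shares are not in like units. The second start of *Galt* holds none of the motifs, and *Ugp2* holds CAGCTG only at its second. Capitals mark these motifs on either strand, also as ATTGG and CCGCCC, and a match describes letters, not binding. For *Galt* (chr4:41755462-41755491, plus strand), 30 bases around CACGTG are given, from 55 to 26 bases before the first of its 2 listed starts, since M21 places an untranslated region there. *Galk1* (chr11:116012720-116012969, minus strand) is given in full, with CACGTG beginning 17 bases before its start.
Galt: gtgcccccaccgtCACGTGttggcgactag
Galk1: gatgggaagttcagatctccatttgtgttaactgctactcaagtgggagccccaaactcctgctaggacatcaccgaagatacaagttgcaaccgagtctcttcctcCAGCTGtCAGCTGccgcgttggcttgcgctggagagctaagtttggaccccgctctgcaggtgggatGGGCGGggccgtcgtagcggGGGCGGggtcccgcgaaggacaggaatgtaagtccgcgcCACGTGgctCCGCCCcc

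*Pgm1*, phosphoglucomutase, interconverts glucose 1-phosphate and glucose 6-phosphate and so joins galactose breakdown, glycogen and glycolysis. The gene is the one that holds this symbol now, since the names *Pgm1* and *Pgm2* were exchanged in older mouse nomenclature. Its level ranged from 264 to 641 CPM at 22°C, with a median of 292 CPM, and from 213 to 352 CPM at 29°C, with a median of 298 CPM. The 2 groups had nearly equal medians, and 22°C replicates 7 and 1, at 641 and 532 CPM, stood above the rest. Means were 379 ± 149 CPM and 289 ± 48.2 CPM (log2 ratio 0.39, SE 0.22, P-adj 0.367 by edgeR). Without these 2 mice, which also carried the most muscle transcripts, the log2 ratio was 0.03 (SE 0.13).

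*Ugp2*, UDP-glucose pyrophosphorylase, makes the UDP-glucose used both by *Galt* and by glycogen synthase. It ranged from 102 to 315 CPM at 22°C, with a median of 131 CPM, and from 106 to 156 CPM at 29°C, with a median of 118 CPM. The same 2 cool mice were high, at 315 CPM for replicate 1 and 266 CPM for replicate 7, and the other 5 lay within or just below the warm range. Means were 170 ± 84.5 CPM and 124 ± 17.7 CPM (log2 ratio 0.46, SE 0.26, P-adj 0.368 by edgeR), and without both mice the log2 ratio was -0.03 (SE 0.10).

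Glycogen synthase has a widely expressed isoform that predominates in muscle, *Gys1*, and an isoform best known from liver, *Gys2*. *Gys1* ranged from 243 to 403 CPM at 22°C, with a median of 296 CPM, and from 187 to 283 CPM at 29°C, with a median of 244 CPM. Of the 7 cool mice, 4 exceeded every warm mouse, and 3 warm mice lay below every cool mouse. Its means of 313 ± 64.6 CPM and 243 ± 36.5 CPM gave a log2 ratio of 0.37 (SE 0.14), with an unadjusted p of 0.0208 and a P-adj of 0.200 over all genes by edgeR. Without 22°C replicates 1 and 7, again its highest mice, the log2 ratio was 0.19 (SE 0.11).

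*Gys2* had the largest log2 ratio of the 9 genes and also the widest spread relative to its mean. It ranged from 3.90 to 44.8 CPM at 22°C, with a median of 16.7 CPM, and from 1.69 to 25.5 CPM at 29°C, with a median of 6.82 CPM. In the warm group, 5 of 6 mice were at or below 8.52 CPM, and 29°C replicate 6 was above 5 of the 7 cool mice. The means of 19.6 ± 14.1 CPM and 8.83 ± 8.56 CPM corresponded to a log2 ratio of 1.15 (SE 0.62, P-adj 0.346 by edgeR). Leaving out 29°C replicate 6 moved it to 1.83, leaving out 22°C replicate 1 moved it to 0.80, and with the muscle score as a covariate it was 1.72 (SE 0.75). None of these passed the threshold.

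*Gbe1* encodes the branching enzyme, which places side chains on the growing polymer. It ranged from 58.9 to 199 CPM at 22°C, with a median of 81.1 CPM, and from 49.7 to 134 CPM at 29°C, with a median of 72.9 CPM. Its highest mice were 22°C replicate 1 and 29°C replicate 6, and the rest of both groups overlapped. The log2 ratio was 0.25 (SE 0.29, P-adj 0.688 by edgeR) between means of 97.1 ± 48.1 CPM and 81.6 ± 29.9 CPM, and -0.03 (SE 0.22) without 22°C replicate 1.

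*Pygl*, the liver isoform of glycogen phosphorylase, releases glucose 1-phosphate from glycogen. It ranged from 122 to 223 CPM at 22°C, with a median of 153 CPM, and from 137 to 264 CPM at 29°C, with a median of 179 CPM. The groups overlapped, and 22°C replicate 1 and 29°C replicate 6 were again the highest of their groups. Means were 162 ± 37.2 CPM and 185 ± 46.6 CPM (log2 ratio -0.19, SE 0.17, P-adj 0.604 by edgeR).

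Per kilobase of exon, with lengths taken from M21, the order of the levels was alike in both groups. A length counts the exon bases of all annotated transcripts of a gene, whether or not they are in use in this tissue. *Pgm1* was first with 130 ± 51.1 CPM per kb at 22°C and 99.0 ± 16.5 CPM per kb at 29°C, followed by *Gys1* (65.5 and 50.8), *Ugp2* (55.3 and 40.3), *Pygl* (23.5 and 26.8) and *Galm* (20.9 and 23.1). *Gbe1* (18.1 and 15.2 CPM per kb) and *Galk1* (15.5 and 16.8 CPM per kb) changed places between the groups. *Galt* (11.3 and 8.59 CPM per kb) and *Gys2* (7.36 and 3.32 CPM per kb) came last. At 22°C the mean ± SD ranges of neighbours in this order overlapped in 7 of 8 pairs, the exception being *Galk1* over *Galt*, and at 29°C in 3 of 8.

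Differences among mice of the same temperature tied some of the glycogen genes together. With group means removed, log2 CPM of the 9 genes were compared over the 13 libraries in 36 pairs, which share libraries and scaling, and 4 pairs had adjusted p below 0.05 for both Pearson's r and Spearman's rho. *Gys2* and *Gbe1* had r of 0.892 (permutation p 0.0001, adjusted 0.0009) and rho of 0.945 (permutation p 1e-05, the smallest these resamples can give, adjusted 0.00036). Within groups r was 0.851 at 22°C and 0.961 at 29°C, it was 0.937 in the 8 libraries with higher totals, and it was 0.862 without the 2 libraries farthest in *Gys2*. *Gys2* and *Pygl* had r of 0.913 (permutation p 9e-05, adjusted 0.0009) and rho of 0.923 (permutation p 0.00016, adjusted 0.00189). That r was 0.895 at 22°C, 0.931 at 29°C, 0.926 in the higher totals and 0.915 without the 2 farthest libraries.

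*Gbe1* and *Pygl* had r of 0.899 (permutation p 4e-05, adjusted 0.0009) and rho of 0.907 (permutation p 0.00017, adjusted 0.00189), with 0.873 at 22°C, 0.949 at 29°C, 0.875 in the higher totals and 0.826 without the 2 farthest libraries. A branching enzyme, a synthase and a phosphorylase thus varied together from mouse to mouse, while none of the 3 differed between temperatures past the threshold. The spread was widest for *Gys2*, from 3.90 to 44.8 CPM at 22°C, when *Pygl* ran from 122 to 223 CPM. The mice at the ends were the same, with 22°C replicate 1 and 29°C replicate 6 highest and replicate 4 of each group lowest for *Gys2* and *Gbe1*.

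The fourth pair was *Pgm1* and *Gys1*, with r of 0.918 (permutation p 9e-05, adjusted 0.0009) and rho of 0.901 (permutation p 0.00021, adjusted 0.00189). It held without 22°C replicates 1 and 7, the 2 farthest libraries (r 0.860), and within groups (0.934 at 22°C, 0.943 at 29°C) and the higher totals (0.883). *Pgm1* and *Ugp2*, in contrast, had r of 0.810 (permutation p 0.0236, adjusted 0.141) and rho of 0.709 (permutation p 0.0164, adjusted 0.118), and that r rested on those 2 mice, as it was 0.128 without them. *Pgm1* shares 398 of 2921 exon bases with *Itgb3bp*, and *Gys1* shares 310 of 4789 with *Ruvbl2*, both on the opposite strand in M21. *Itgb3bp*, a centromere-associated gene, was the gene most like *Pgm1* of 15734 ranked (r 0.989), and reads of the 2 cannot be told apart without the strand setting.

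**Figure D2:**
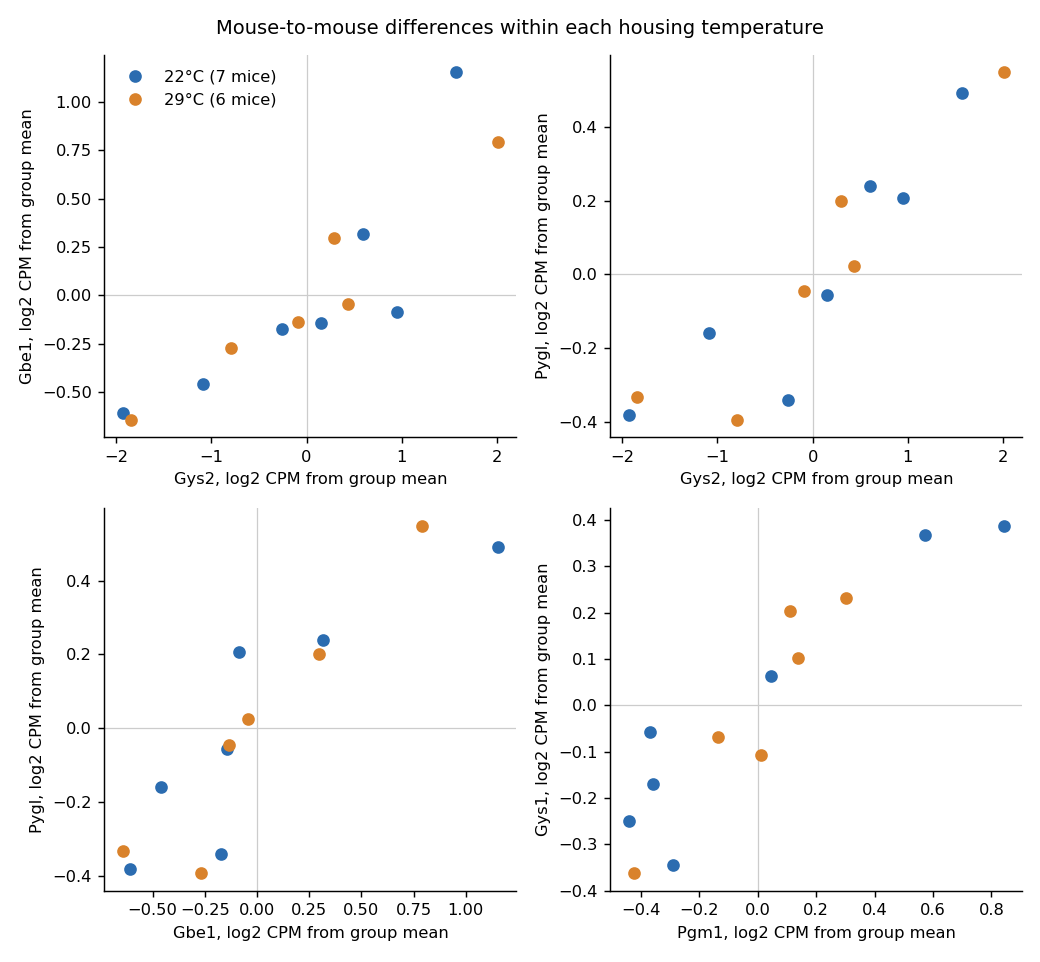
Log2 CPM of each mouse relative to the mean of its own temperature group, for *Gbe1* against *Gys2*, *Pygl* against *Gys2*, *Pygl* against *Gbe1*, and *Gys1* against *Pgm1* (blue 22°C, orange 29°C). Mice of both groups fall along the same line in every panel, with r over all 13 mice between 0.892 and 0.918.

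The bases before the start are given for the members of these pairs that have an entry, with the same motifs in capitals and untranslated bases of M21 left out. *Pgm1* (chr4:99929201-99929413, plus strand, 213 bases) and *Gys1* (chr7:45434710-45434838, plus strand, 129 bases) both hold CCAAT, 2 and 4 times in their 250 bases, and GGGCGG, 1 and 2 times. *Gbe1* (chr16:70313699-70313948, plus strand, 250 bases) holds none of the 4 motifs, and *Pygl* (chr12:70227684-70227933, minus strand, 250 bases) holds GGGCGG 3 times, so that this pair shared none of them.
Pgm1: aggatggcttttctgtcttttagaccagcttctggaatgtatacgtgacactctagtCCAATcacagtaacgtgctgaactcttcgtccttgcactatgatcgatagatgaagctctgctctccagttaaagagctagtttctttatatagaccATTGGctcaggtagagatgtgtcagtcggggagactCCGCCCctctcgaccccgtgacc
Gys1: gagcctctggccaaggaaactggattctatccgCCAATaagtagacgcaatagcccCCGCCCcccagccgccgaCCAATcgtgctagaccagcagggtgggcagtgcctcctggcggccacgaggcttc
Gbe1: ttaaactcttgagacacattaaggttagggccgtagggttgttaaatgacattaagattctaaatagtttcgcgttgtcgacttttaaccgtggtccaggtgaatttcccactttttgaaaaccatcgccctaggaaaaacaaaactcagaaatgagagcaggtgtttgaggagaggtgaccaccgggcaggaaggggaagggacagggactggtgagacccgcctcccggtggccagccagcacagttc
Pygl: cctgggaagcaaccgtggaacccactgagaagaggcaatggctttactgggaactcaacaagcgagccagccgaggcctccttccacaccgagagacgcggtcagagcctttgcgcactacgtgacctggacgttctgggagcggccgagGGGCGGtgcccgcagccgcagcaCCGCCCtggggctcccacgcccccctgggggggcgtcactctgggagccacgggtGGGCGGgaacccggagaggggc

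The muscle transcripts of a library moved with some of the 9 genes. Over 18 relations with the muscle and the adipocyte marker scores, group means removed, *Ugp2* had r of 0.709 with the muscle score (permutation p 0.00227, adjusted 0.0357) and rho of 0.736 (permutation p 0.00252, adjusted 0.0454), with 0.877 at 22°C, 0.545 at 29°C, 0.696 in the higher totals and 0.746 without the 2 farthest libraries. *Galm* ran the other way, with r of -0.778 (permutation p 0.00397, adjusted 0.0357) and rho of -0.698 (permutation p 0.0175, adjusted 0.140), within groups -0.813 and -0.773, -0.830 in the higher totals and -0.616 without the 2 farthest libraries. *Galm* also had r of 0.766 with the adipocyte score (permutation p 0.00655, adjusted 0.0393) and rho of 0.681 (permutation p 0.0233, adjusted 0.140), with 0.872 at 22°C, 0.511 at 29°C, 0.759 in the higher totals and 0.612 without the 2 farthest libraries. The rho of both *Galm* relations missed the threshold.

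*Galt* had r of 0.06 with the muscle score over all mice (permutation p 0.846, adjusted 0.895) and rho of 0.275 (permutation p 0.389, adjusted 0.467), and its relation had opposite signs in the groups. It was 0.866 among the 7 cool mice and -0.687 among the 6 warm mice, where 29°C replicate 6 combined the lowest muscle score, 0.21, with the highest *Galt*. Without that mouse and 22°C replicate 7 the pooled r was 0.747, and in the higher totals it was -0.300. With the muscle score as a covariate the log2 ratio was -0.0029 (SE 0.22) for *Ugp2*, 0.12 (SE 0.23) for *Pgm1* and 0.28 (SE 0.16) for *Gys1*. It was -0.02 (SE 0.19) for *Pygl*, -0.0056 (SE 0.08) for *Galm* and -0.07 (SE 0.10) for *Galk1*. For *Gbe1* and *Gys2* it moved away from 0, from 0.25 to 0.32 (SE 0.36) and from 1.15 to 1.72 (SE 0.75). The part of muscle tissue in these values was not tested beyond these fits.

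**Figure D3:**
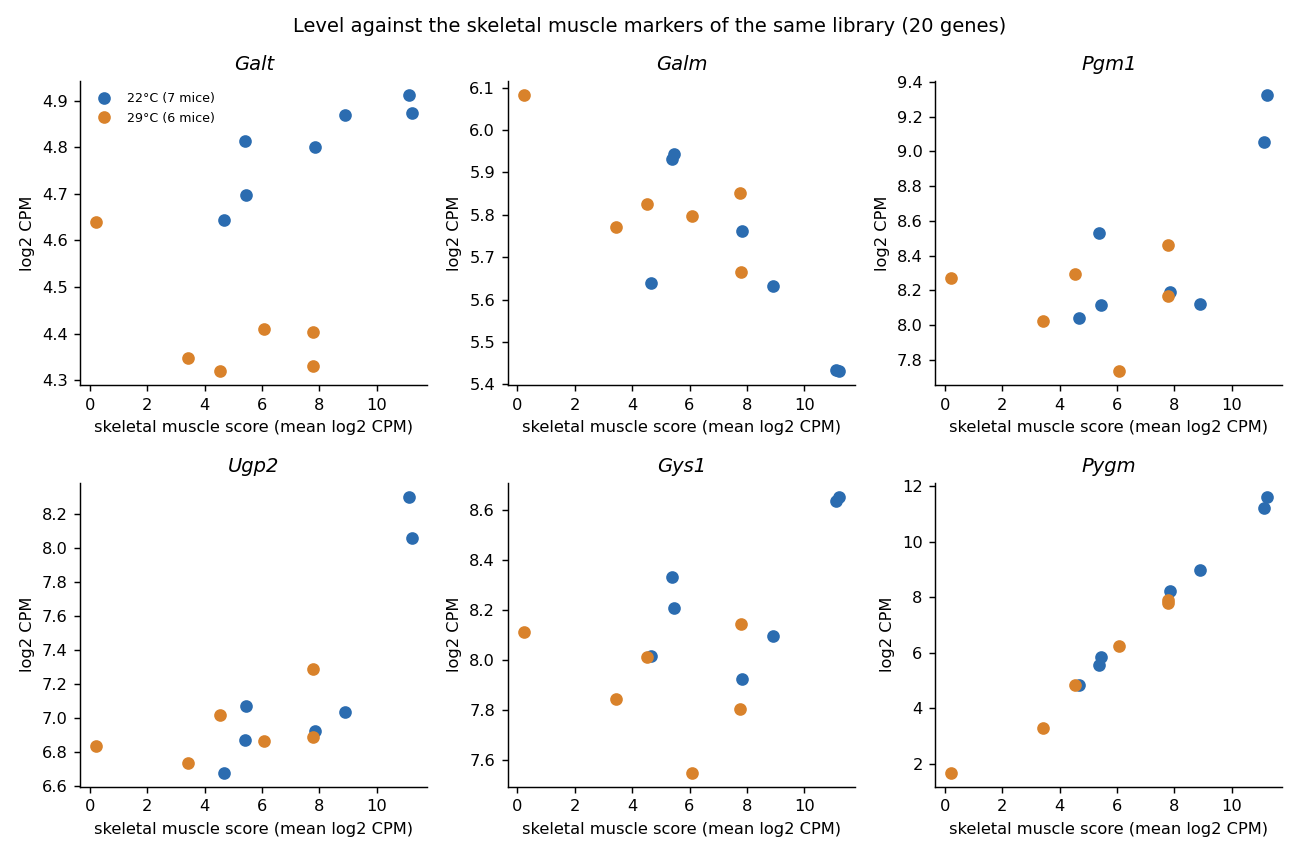
Log2 CPM of *Galt*, *Galm*, *Pgm1*, *Ugp2*, *Gys1* and *Pygm* (vertical axes) against the skeletal muscle score of the same library, the mean log2 CPM of 20 markers (blue 22°C, orange 29°C). *Pygm* follows the score in both groups, and *Ugp2* and *Pgm1* are high in the 2 cool mice with scores of 11.1 and 11.2. The groups do not overlap in *Galt*. Warm scores end at 7.79, so 22°C replicates 1, 4 and 7, at 8.90 to 11.2, have no warm mouse at a like score.

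Other genes of both pathways were read from a list of 39, of which 37 were tested. Of these, 18 were higher and 19 lower at 22°C, and the median log2 ratio was -0.01. None was called by edgeR, although 14 had an unadjusted p under 0.05, as did 18.5% of all genes tested. DESeq2, which called 10.2% of all genes with an adjusted p, called 6 of the list, with *Gyg1*, *Pygm*, *Phka1*, *Ppp1r3a* and *Epm2a* higher and *Phka2* lower. All 6 genes of galactose and UDP-sugar handling had lower means at 22°C, between -0.24 and -0.06 on the log2 scale, and 1 had an unadjusted p under 0.05.

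A group of 4 genes with the priming protein and the other phosphorylases had the highest median log2 ratio of these groups, 1.11, and *Gyg1* and *Pygm* were highest in the mice with the most muscle transcripts. *Pygm*, the muscle isoform of glycogen phosphorylase, ranged from 28.4 to 3182 CPM at 22°C, with a median of 299 CPM, and from 3.07 to 241 CPM at 29°C, with a median of 51.6 CPM. Its log2 ratio of 3.27 (SE 1.30, P-adj 0.211 by edgeR) was 0.96 (SE 1.04) without 22°C replicates 1 and 7 and 0.13 (SE 0.20) with the muscle score as a covariate.

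*Gyg1* (also *Gyg*), glycogenin, the protein core on which glycogen is primed, ranged from 73.3 to 249 CPM at 22°C, with a median of 94.1 CPM, and from 63.3 to 80.5 CPM at 29°C, with a median of 68.1 CPM. Of the 7 cool mice, 5 lay above every warm mouse. The log2 ratio was 0.84 (SE 0.28, P-adj 0.168 by edgeR), and 0.29 (SE 0.10, P-adj 0.186 by edgeR) without 22°C replicates 1 and 7. *Pygb*, the brain isoform of the phosphorylase, ran the other way, from 230 to 399 CPM at 22°C, with a median of 298 CPM, and from 292 to 437 CPM at 29°C, with a median of 365 CPM. Its log2 ratio was -0.27 (SE 0.13, P-adj 0.268 by edgeR). Per kilobase, *Pygb* (62.4 ± 10.5 and 75.4 ± 11.9 CPM per kb at 22°C and 29°C) exceeded *Pygl* beyond the SD in both groups, while *Pygm* had 290 ± 405 and 30.0 ± 33.4 CPM per kb. The exon lengths used were 4.81 kb for *Pygb* and 6.90 kb for *Pygl*.

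The regulators of the synthase and the phosphorylase were mixed. Phosphorylase kinase had 4 of 5 genes with a higher mean at 22°C, with log2 ratios from -0.24 to 1.91. The 1.91 was *Phka1* (SE 0.73, P-adj 0.199 by edgeR), at 165 and 267 CPM in the muscle-rich 22°C replicates 1 and 7. *Phkb*, at 0.59 (SE 0.35), had only 2 of 7 cool mice above the warm median. Of 6 tested subunits that target protein phosphatase 1 to glycogen, 2 were higher and 4 lower, from -0.77 to 3.19. The 3.19 was *Ppp1r3a* (SE 1.26, P-adj 0.209 by edgeR), at 139 and 155 CPM in the same 2 mice. Both glycogen synthase kinases had slightly higher means (0.10 and 0.13), and genes that form or release glucose 6-phosphate divided 3 to 3. Of the 4 genes of glycogen handling and lysosomal breakdown, 3 were higher, among them *Gaa*, the lysosomal glucosidase, with a range of 120 to 217 CPM at 22°C and 130 to 164 CPM at 29°C (log2 ratio 0.10, SE 0.14, P-adj 0.734 by edgeR).

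**Figure D4:**
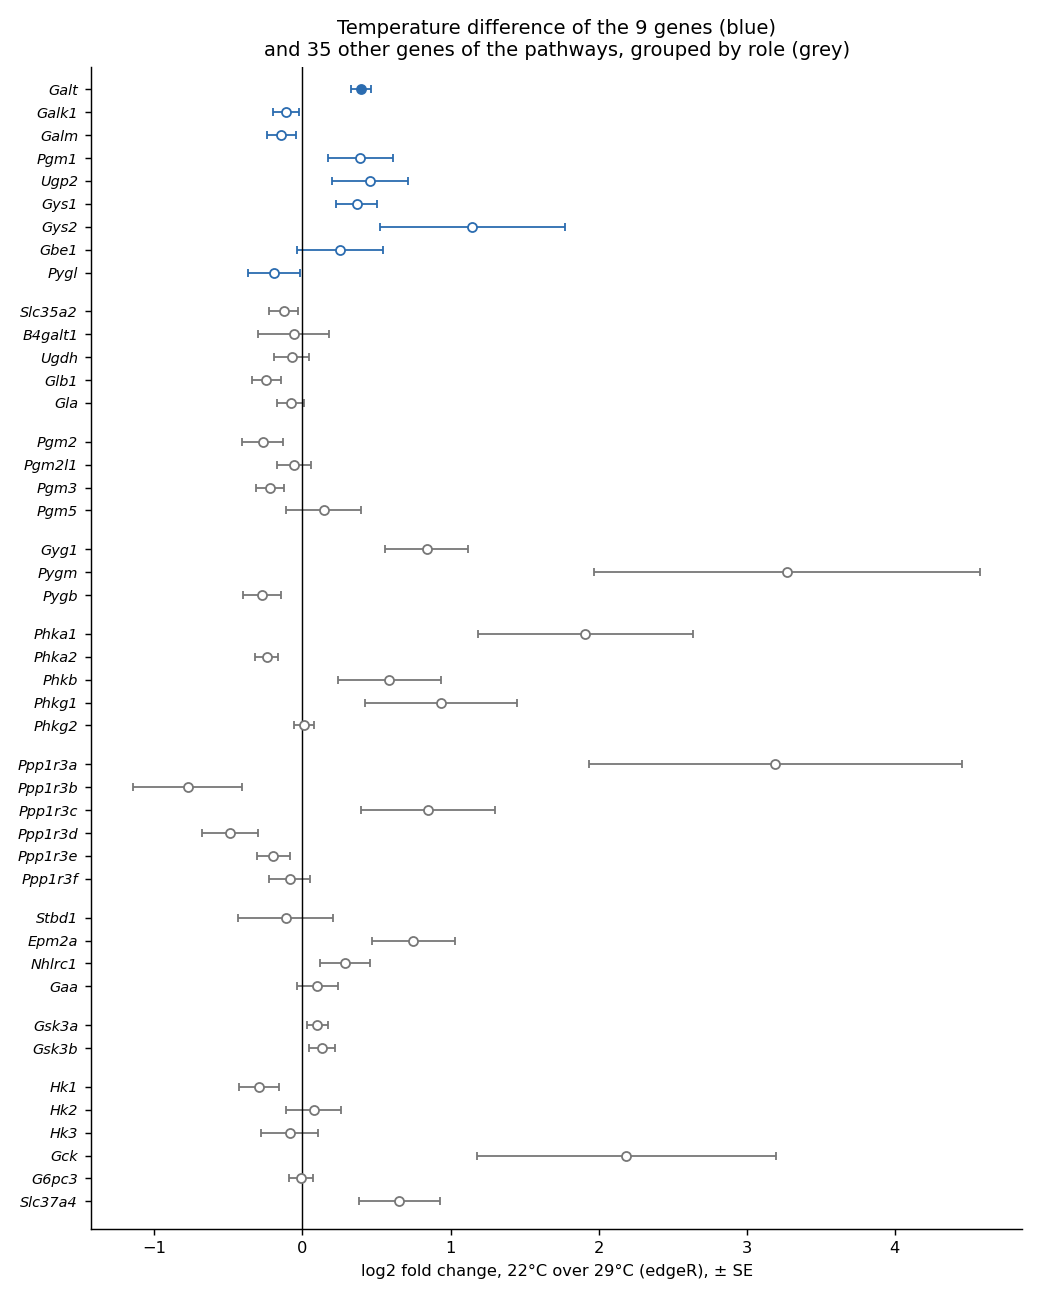
Log2 ratio (fold change) of 22°C over 29°C (horizontal axis) with its SE for the 9 genes (blue) and 35 other genes of the pathways in groups by role (grey), where a filled point marks P-adj below 0.1. *Galt*, at 0.39, is the only filled point, and the widest bars belong to genes such as *Pygm*, at 3.27, that follow muscle transcripts.

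The genes whose pattern was most like that of *Galt* over the 13 libraries, by Pearson's r of log2 CPM with group means removed, were *R3hdm4* (0.858), *Bcl6* (0.847), *Gm37419* (0.846), *Zfp787* (0.841) and *Gm26602* (0.832), of 15734 genes with a mean of at least 1 CPM. None of the other 8 genes stood near the top of this order, the nearest being *Gys1* with r of 0.488 at rank 1112, and *Galk1* had a negative r of -0.457.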

How the data were processed

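Gluteal WAT of 13 mice was sequenced, 1 library per mouse, and mice were grouped by the housing temperature in the labels, where the replicate number only names a mouse. Per the labels, reads were aligned with STAR 2.7.5a and counted with featureCounts. The authors deposited raw counts per gene for 34419 genes and regularized log2 values made with DESeq2, the latter used here in 1 alternative only. The labels name GRCm39, whereas the study's methods name mm10 for a related experiment, and the strand setting is not given in the sources used here. Gene identifiers were matched without their version, which gave 34006 symbols and all 48 genes of the lists.

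Counts were tested with edgeR 4.0.16 in R 4.3.3 (TMM scaling, filterByExpr, quasi-likelihood F test, Benjamini-Hochberg over all genes tested, called below 0.1). CPM use TMM-scaled totals, and log2 CPM a prior count of 2. The SE was derived from the fold change and its F value. Relations over mice used two-sided permutation tests of 100000 resamples within groups, adjusted over 36 and 18 relations. The fits were tested on simulated data. Alternatives used DESeq2 1.42.0, limma 3.58.1, other filters and scalings, covariates, a replicate block and left-out mice. Leaving out 22°C replicates 1 and 7 together was chosen after the data were seen.

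The genes, the list of 39 others and the markers were chosen with earlier results of these data known. Genes named from the list of 39 are *Gyg1*, *Pygm* and *Pygb*, the 3 with the largest mean CPM (*Pygm*, *Pygb* and *Gaa*), any called gene, and those that DESeq2 called. *Phkb* was added after its values were seen. A few genes that the rule would name are not reported here. No library appears to be deposited under 2 labels, as the chi-square per gene was at least 16.9 in each of 78 pairs. The labels say nothing of cages or litters, so p-values measure the spread between these mice. Counts per library were 514 to 695 for *Galt* and 45 to 850 for *Gys2*, and the share of counting error in the spread between mice was not estimated.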

Additional observations from a re-analysis of the deposited data

Results flagged for a closer look

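Among 26 sets of values (9 genes and 4 others of the pathways, in each temperature group), 3 held a mouse that lay apart from its group, judged by the gap to the nearest mouse as a share of the whole range (over 0.625 for 6 mice and 0.568 for 7). Chance flags about 1 in 20 such groups.

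In the warm group, 29°C replicate 6 was apart for *Galt* at 24.8 CPM, where the next mouse was at 21.2 CPM (share 0.738), and for *Gys2* at 25.5 CPM, where the next was at 8.52 CPM (share 0.713). The same library had the lowest muscle score of all 13, 0.21, and the highest *Galm*, *Gbe1* and *Pygl* of its group. In the cool group, 22°C replicate 1 was apart for *Gbe1* at 199 CPM, where the next mouse was at 112 CPM (share 0.626).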

How the results depend on the processing

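The number of genes called was 345 in the analysis reported. It was 1676 with DESeq2, 42 without a filter on low counts, 214 with the replicate block, 44 with the muscle score as a covariate, 4 with the library-total cluster as a covariate, 8 in the higher-total libraries only and 40 at P-adj below 0.05, and leaving out 1 mouse gave 32 (29°C replicate 3) to 652 (22°C replicate 6). The cause was not tested.

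Of the 9 genes, 1 was called, *Galt*, and 0 with the replicate block, with the muscle score or the library-total cluster as a covariate, in the higher-total libraries only, and without 29°C replicate 3, so that leaving out 1 mouse gave 0 to 1. The log2 fold change of *Galt* stayed between 0.30 and 0.44 in all alternatives run. Of the 37 other genes tested, 0 were called in every alternative except DESeq2, which called 6. Directions reversed in 4 cases besides leaving out single mice, always near 0. *Ugp2* was at -0.0029 with the muscle score as a covariate and -0.030 without 22°C replicates 1 and 7, a choice made after the data were seen, and *Gbe1* was at -0.0034 in the higher-total libraries only and -0.027 without both mice. Leaving out 1 mouse gave -0.026 to 0.45 for *Gbe1*, the only gene of the 9 whose direction turned.

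Equal replicate numbers were not taken to pair the mice, since no label ties them and the correlations of same-numbered mice over genes ran from 0.05 to 0.51. Among the 6 warm mice, the best match of 4 of the cool mice numbered 1 to 6 was the one with their own number, a hint from the data and not from the design. With the replicate block *Galt* was at 0.38.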

Other observations

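Genes were also ranked by their likeness to *Gys2*, *Gbe1*, *Pygl* and *Pgm1* in mouse-to-mouse pattern, and those named here were chosen from the first 10 after their values were seen, with no test of what they share. Of 15734 genes ranked by Pearson's r with *Gys2* over the 13 libraries, group means removed, the first was *Tkt*, transketolase of the pentose phosphate pathway (r 0.973), with *Fasn*, fatty acid synthase (0.957), *Me1*, malic enzyme (0.940), and *Pcx*, pyruvate carboxylase (0.937), among the first 10. With *Gbe1*, the first 2 were *Acaca*, acetyl-CoA carboxylase (0.979), and *Me1* (0.977), and the first 10 held *Acss2*, acetyl-CoA synthetase (0.947), *Pdha1*, a pyruvate dehydrogenase subunit (0.942), *Elovl6*, a fatty acid elongase (0.942), and *Tkt* (0.942). The first 10 for *Pygl* held *Tkt* (0.914), *Pgam1*, phosphoglycerate mutase (0.926), and *Plin2*, a lipid droplet protein (0.915). None of the first 10 genes for *Gys2*, *Gbe1* or *Pygl* was called between temperatures, the lowest P-adj being 0.277, for *Gnptab*, by edgeR. These r describe genes that share libraries and scaling, and carry no test.

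The first 10 genes for *Pgm1* held *Coq9*, of coenzyme Q synthesis (r 0.967), *Ulk2*, an autophagy kinase (0.966), and *Nfs1*, of iron-sulfur cluster assembly (0.948), and *Coq9* (0.911) was also among the first 10 for *Gys1*.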
